A study of Mus musculus with 6 samples.

Results

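Keratocan, the product of Kera, belongs to the small leucine-rich proteoglycans of the extracellular matrix, and the genes of 10 members of this family (Kera, Lum, Dcn, Bgn, Fmod, Ogn, Omd, Prelp, Epyc and Aspn) were followed in the gastrocnemius muscle of young and aged mice. The genes were chosen by family and on the processed signals of the aged arrays against the young arrays, with that difference already known, so that their values in this comparison are given as a description without a test. Of the 10 genes, 9 had a probe matched by accession, each with 1 probe, and 8 of these were bright enough to be compared, among 20900 genes tested on the array. Prelp had no matched probe, and the probe of Epyc was too dim.

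Total RNA of the gastrocnemius, a fast muscle of the calf, was taken from 3 young mice (13 weeks of age) and 3 aged mice (26 months of age). All were male and, per the methods, C57BL/6J, without a transgene or treatment named. Each RNA was labelled with Cy3 and hybridized to its own single-colour Agilent array, and the comparison asks which transcripts differ between young and aged muscle. Values are log2 signals minus the 75th percentile of the array, so that 0 is the 75th percentile and a step of 1 is a doubling. A probe has its own brightness, so that signals were compared between mice and not between genes.

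Small leucine-rich proteoglycans are secreted proteins whose leucine-rich repeats form a curved domain that binds collagen fibrils and adjusts their diameter and spacing. Decorin and biglycan carry chondroitin or dermatan sulfate chains, whereas lumican, keratocan, fibromodulin and osteomodulin (the product of Omd) can carry keratan sulfate. In muscle they are made mainly by fibroblasts of the connective tissue and by tendon cells, and keratocan is best known from the stroma of the cornea, where its loss in humans flattens the cornea.

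Kera (NM_008438) showed the clearest separation of the groups among these genes, at a difference of −6.66 times the pooled SD. In young mice the log2 signal of mouse 1 was 1.05, that of mouse 2 was 1.47 and that of mouse 3 was 2.27, whereas the aged animals, in the same order, gave −1.90, −1.49 and −1.37. All 3 aged mice lay below all 3 young mice, and the probe was well above background on all 6 arrays. The means were 1.60 ± 0.62 (SD, n = 3) in young mice and −1.59 ± 0.27 in aged mice, a log2 difference of −3.18 ± 0.33 (SE), which is a signal 9.09 times higher in young mice. Ordered by the size of the decrease in aged mice, Kera was number 8 of the 20900 genes. As the RNA came from whole muscle, fewer cells that make the transcript and less RNA per cell cannot be told apart, here and for every gene below.

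Fmod (NM_021355), which encodes the fibril-binding fibromodulin abundant in tendon, was lower in aged mice as well. Young mice gave 2.90, 3.49 and 2.50 and aged mice 2.14, 1.39 and 1.46. The groups did not overlap, and the log2 difference was −1.30 ± 0.32 (SE), or 0.406-fold. Omd (NM_012050), whose product is a keratan sulfate proteoglycan of mineralized tissue, gave −0.72, −0.28 and −0.40 in young mice and −1.13, −1.54 and −2.29 in aged mice. These groups did not overlap either, with a log2 difference of −1.19 ± 0.31 (SE), or 0.439-fold. Lum (NM_008524), the gene of lumican and a close relative of keratocan, behaved differently. It gave 3.35, 3.30 and 3.90 in young mice and 3.00, 3.38 and 3.51 in aged mice. Its groups overlapped, and its log2 difference of −0.22 ± 0.23 (SE) was smaller than the SD of 0.33 among young mice.

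Of the genes whose proteins carry chondroitin or dermatan sulfate, Dcn (NM_007833) encodes decorin, which binds fibrillar collagen and transforming growth factor β. Dcn gave 8.43, 8.36 and 8.48 in young mice and 8.28, 7.56 and 6.87 in aged mice. Aged mouse 1 lay just under the young mice, and aged mouse 3 far under them. The SD was 0.058 in young and 0.71 in aged mice, and the log2 difference was −0.85 ± 0.34 (SE), or 0.553-fold. Without aged mouse 3 it was −0.50. Bgn (NM_007542), the gene of biglycan, gave −0.56, −0.39 and −0.86 in young mice and −0.58, −0.89 and −0.50 in aged mice. These values were interleaved, and the log2 difference of −0.053 ± 0.20 (SE) changed sign when young mouse 2 (0.056) or aged mouse 2 (0.063) was left out.

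Aspn (NM_025711) encodes asporin, a relative of decorin that carries no glycosaminoglycan chain. It gave −0.065, −0.089 and −0.25 in young mice and −0.61, −3.75 and −5.71 in aged mice. The young mice were close together, while the aged mice spread over 5.10 units on the log2 scale. The probe was well above background on all 3 arrays of young mice but only on that of aged mouse 1, so that the other 2 aged values are only bounds. The fitted log2 difference was −3.22 ± 1.15 (SE), and −2.05 without aged mouse 3. The pooled SD of Aspn was 1.82, against 0.48 for Kera and a median of 0.28 over all genes tested. As 2 of the values are bounds, the size of this difference is uncertain. Normexp background correction added 50 to every signal, which by itself draws the differences of dim probes towards 0. With it the difference of Aspn was −1.47 and that of Kera −2.45. With the slide row as a block, where aged mouse 1 alone is compared with the young mice, that of Aspn was −0.48.

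Ogn (NM_008760) encodes osteoglycin, also called mimecan, a further collagen-binding member that muscle is known to secrete. It gave 3.63, 3.73 and 4.27 in young mice and 3.36, 3.72 and 3.27 in aged mice. Aged mouse 2 lay within the young range, and the log2 difference was −0.43 ± 0.23 (SE), or 0.743-fold. Epyc (NM_007884), the gene of epiphycan of growth cartilage, was not well above background in any young mouse. It was so only in aged mouse 2, at −3.49, and no fold is given.

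**Figure D1:**
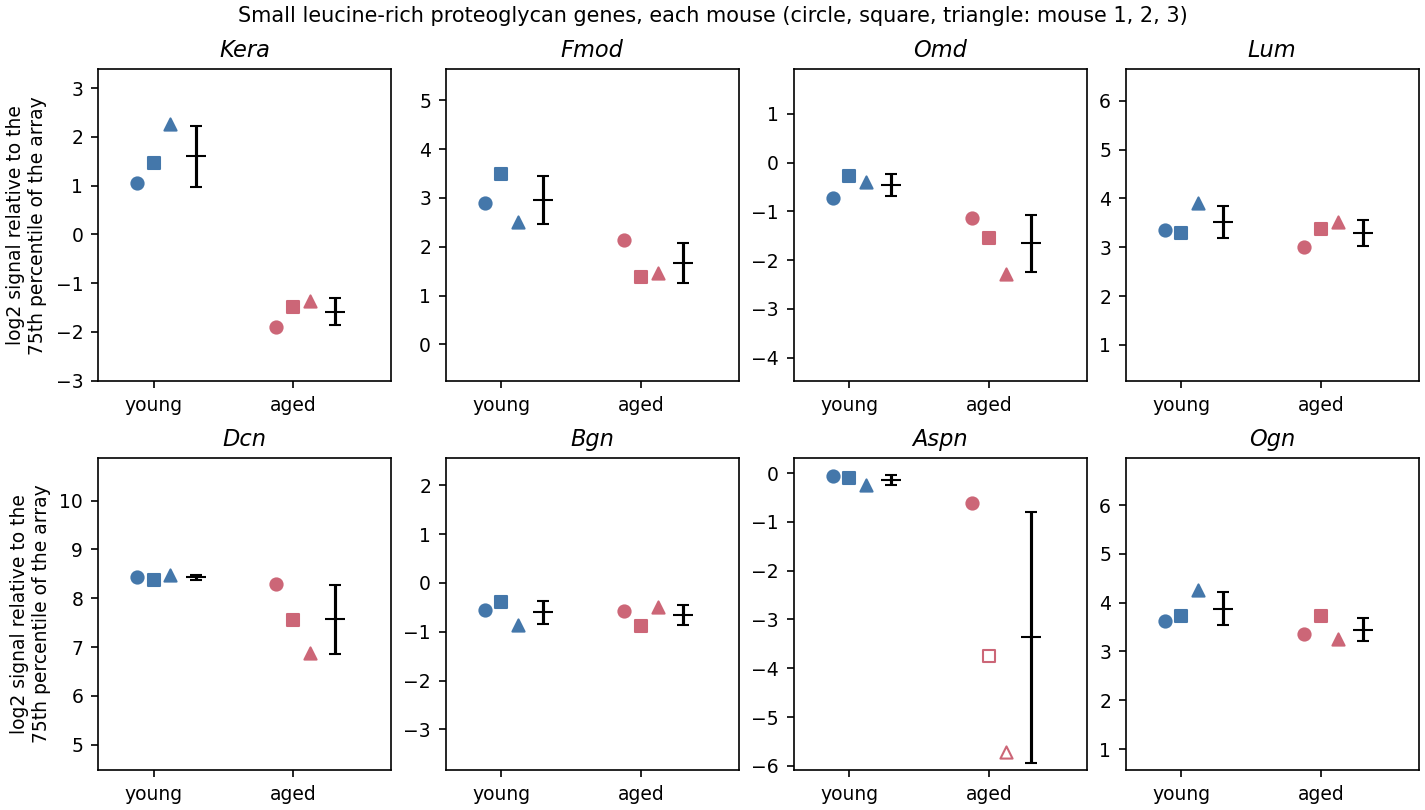
The log2 signal relative to the 75th percentile of the array (vertical axis) of the 8 genes that could be compared, in 3 young (blue) and 3 aged (red) mice. Circles, squares and triangles are mice 1, 2 and 3, open symbols are probes not well above background, and the bar beside each group is the mean ± SD. The groups are apart for Kera, Fmod, Omd, Dcn and Aspn and overlap for Lum, Bgn and Ogn, and all panels span the same number of log2 units.

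Over the 8 genes, the mean was lower in aged mice for 8 (7 in the alternatives where Bgn changed sign), and over all genes tested it was lower for 56.9%. The groups did not overlap for 5 of the 8 (Kera, Fmod, Omd, Dcn and Aspn), all lower in aged mice, where 13.9% of all genes were lower without overlap. Of these, Aspn met the filter through the young mice, where it was higher. The median log2 difference was −1.02, beside −0.062 over all genes tested. It lies between the values of Omd and Dcn and so does not depend on how far Aspn was below its bound. Since the genes were listed with these differences known, nothing is read from the shares.

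The aged mice were not alike. Relative to the mean of the young mice, the median over the 8 genes was −0.52 in the first, −0.97 in the second and −1.53 in the third of them. In the first, 7 of the 8 genes lay below every young mouse, and in each of the other two, 6 did, where the share over all genes tested was 37.6%, 30.4% and 38.8% in the same order. Row 1 of the slide held the array of aged mouse 1 beside all 3 young arrays, and row 2 the remaining aged arrays. Within row 1, aged mouse 1 differed from the mean of the young mice by −3.49 for Kera, −0.83 for Fmod, −0.67 for Omd and −0.48 for Aspn. The difference within that row was −0.52 for Lum and for Ogn, −0.14 for Dcn and 0.019 for Bgn. Kera was thus as low in row 1 as in row 2, where aged mice 2 and 3 were at −3.09 and −2.97 from the young mean. Dcn, Omd, Fmod and Aspn were all nearer to the young mice in aged mouse 1 than in the other two, and the part of the row in this was not tested.

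**Figure D2:**
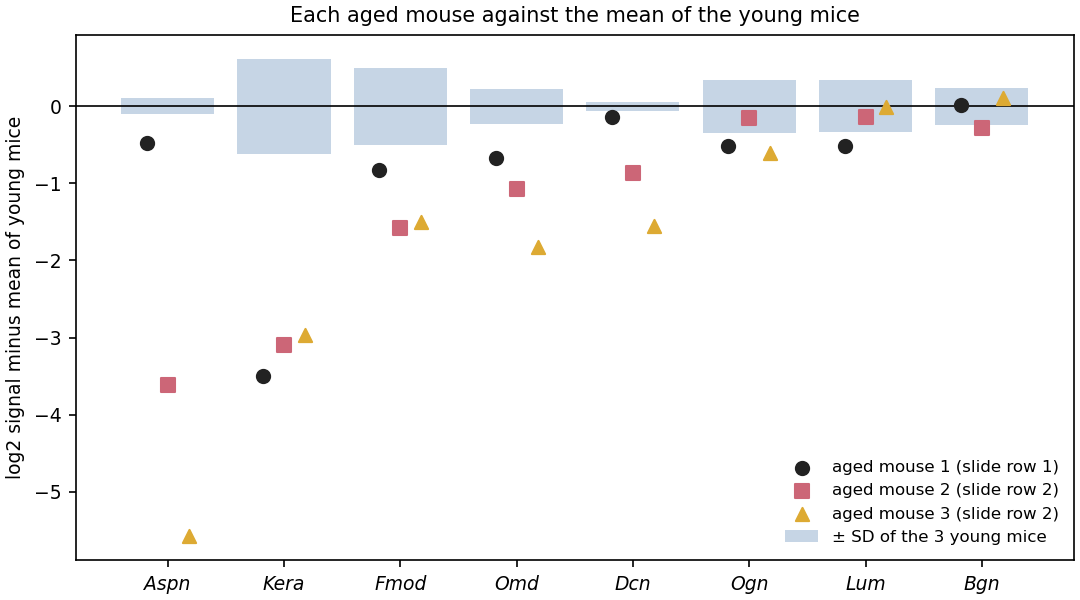
The log2 signal of each aged mouse minus the mean of the 3 young mice (vertical axis) for the 8 genes (horizontal axis), with the SD of the young mice as a band. For Kera the 3 aged mice lie together between −3.49 and −2.97, whereas for Aspn they run from −0.48 to −5.58, the latter from a probe not well above background.

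To see whether Kera differed from its relatives on the same array, its log2 ratio to each of them was taken within each mouse, a comparison chosen after the values were seen. Only the change of such a ratio between mice has a meaning. The ratio of Kera to Lum was −1.92 ± 0.34 (SD, n = 3) in young mice and −4.88 ± 0.0098 in aged mice, a change of −2.96. Among the 3 aged mice this ratio varied far less than Kera or Lum did alone. In young mice its SD was about that of Lum alone (0.33). The ratios to the other genes below had an SD in aged mice from 0.35 (Ogn) to 0.97 (Dcn). The change was −3.13 against Bgn, −2.76 against Ogn, −2.33 against Dcn, −2.00 against Omd and −1.88 against Fmod. The young and aged mice did not overlap in any of these 6 ratios. As Kera alone already separated the groups, nothing is read from this. No change is given against Aspn, which was not well above background in aged mice 2 and 3.

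The genes lie in short runs on the chromosomes, by the order of genes in RefSeq on GRCm38.p6. Dcn, Lum, Kera and Epyc are neighbours on chromosome 10. Within this run the log2 difference was −3.18 for Kera, −0.22 for its neighbour Lum and −0.85 for Dcn. Aspn, Omd and Ogn are neighbours on chromosome 13, with differences of −3.22, −1.19 and −0.43. This run is flanked on one side by Ecm2, itself a gene of the family, at −0.89 (adjusted p = 0.227 in limma), and on the other by Nol8, whose product is a nucleolar protein, at 0.15 (adjusted p = 0.697). Prelp and Fmod lie next to each other on chromosome 1, beside the growth-arrest gene Btg2 at 0.73 (adjusted p = 0.548). Bgn is alone on chromosome X. None of these 3 flanking genes passed the threshold of an adjusted p under 0.05 in limma, which 0.254% of all genes passed, and Ecm2 alone had an unadjusted p under 0.05.

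Promoters were compared because the listed genes with a measured signal had lower means in aged mice. RefSeq promoters on GRCm38.p6, from 250 bases before to 50 bases after the start of a gene, were matched for 8 of the 10 genes, not for Lum and Dcn. Those of the 4 genes with the largest differences are shown 5′ to 3′ with matches in capitals to the TATA box (TATAAA), to the AP-1 site (TGANTCA) or to the Smad box (CAGAC), on either strand.
Kera (chr10:97606955-97607254, plus strand): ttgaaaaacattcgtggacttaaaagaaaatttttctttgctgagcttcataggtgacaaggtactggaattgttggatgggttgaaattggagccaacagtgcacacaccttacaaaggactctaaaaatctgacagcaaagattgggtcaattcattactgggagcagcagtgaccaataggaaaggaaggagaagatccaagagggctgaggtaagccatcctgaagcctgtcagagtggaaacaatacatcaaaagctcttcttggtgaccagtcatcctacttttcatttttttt
Fmod (chr1:134037004-134037303, plus strand): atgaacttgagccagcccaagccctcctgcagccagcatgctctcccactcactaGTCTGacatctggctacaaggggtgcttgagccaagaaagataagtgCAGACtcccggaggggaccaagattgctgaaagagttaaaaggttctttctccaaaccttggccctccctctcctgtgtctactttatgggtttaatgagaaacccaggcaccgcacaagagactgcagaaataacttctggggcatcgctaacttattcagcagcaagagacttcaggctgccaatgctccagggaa
Omd (chr13:49582212-49582511, plus strand): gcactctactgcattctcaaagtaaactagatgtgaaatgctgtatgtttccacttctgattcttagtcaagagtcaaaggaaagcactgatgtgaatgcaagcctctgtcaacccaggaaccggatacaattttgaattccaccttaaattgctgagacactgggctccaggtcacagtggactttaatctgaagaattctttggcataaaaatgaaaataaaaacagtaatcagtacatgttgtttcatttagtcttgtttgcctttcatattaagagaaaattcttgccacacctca
Aspn (chr13:49544193-49544492, plus strand): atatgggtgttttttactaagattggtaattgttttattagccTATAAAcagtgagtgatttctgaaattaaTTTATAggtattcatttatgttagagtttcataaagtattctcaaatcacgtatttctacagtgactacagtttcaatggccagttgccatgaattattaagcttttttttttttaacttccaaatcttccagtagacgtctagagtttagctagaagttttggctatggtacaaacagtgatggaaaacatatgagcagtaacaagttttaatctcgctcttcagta
The promoters of Kera and Omd held none of these letters, that of Fmod held CAGAC on both strands, and that of Aspn held TATAAA on both strands. The 8 genes with a promoter include Prelp and Epyc, for which no difference was measured. Among them, TATAAA was present in 2 (Aspn and Ogn), CAGAC in 2 (Fmod and Prelp) and TGANTCA in 0. The E-box CANNTG, which binds myogenic factors among others and is not marked above, was present in 6, though not in Kera or Omd. Over all 32851 promoters of the same length, 13.6% held TATAAA, 49.6% CAGAC, 7.81% TGANTCA and 72.3% CANNTG. A match is only a run of letters and was not tied to the signals.

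The other genes of the family were not on the list and were tested with limma across all genes. Of 8 such genes, 5 could be tested, and the mean of 5 was lower in aged mice (that of Podn higher, at 0.051, without aged mouse 1), with a median log2 difference of −0.89. None passed the threshold, and 4 were lower at an unadjusted p under 0.05 (Chad, Tsku, Ecm2 and Chadl), which held for 8.38% of all genes. Of these, Tsku met the filter through the young mice, where it was higher. Chad, the gene of chondroadherin of cartilage and tendon, gave 0.72, 1.99 and 1.69 in young mice and −0.18, −0.76 and −1.12 in aged mice. The groups were apart, and the log2 difference was −2.16 ± 0.39 (SE, adjusted p = 0.105). With arrays scaled to their median, Chad was past the threshold (−2.30, adjusted p = 0.0488), with a range of the adjusted p over all alternatives from 0.0488 to 0.319. Its probe resembled that of Kera more than any other family member did (rank 10 of 13840 named genes in likeness). Tsku, whose product tsukushi binds several growth factors, was at −1.75 (adjusted p = 0.250), but its probe was well above background in only 1 of the aged mice, and with normexp the difference was −0.55. Ecm2, a matrix protein with leucine-rich repeats, was at −0.89 (adjusted p = 0.227), Chadl, the chondroadherin-like gene, at −0.55 (adjusted p = 0.299) and Podn, the gene of podocan, at −0.28 (adjusted p = 0.730). The probes of Optc, Nyx and Podnl1 were too dim.

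**Figure D3:**
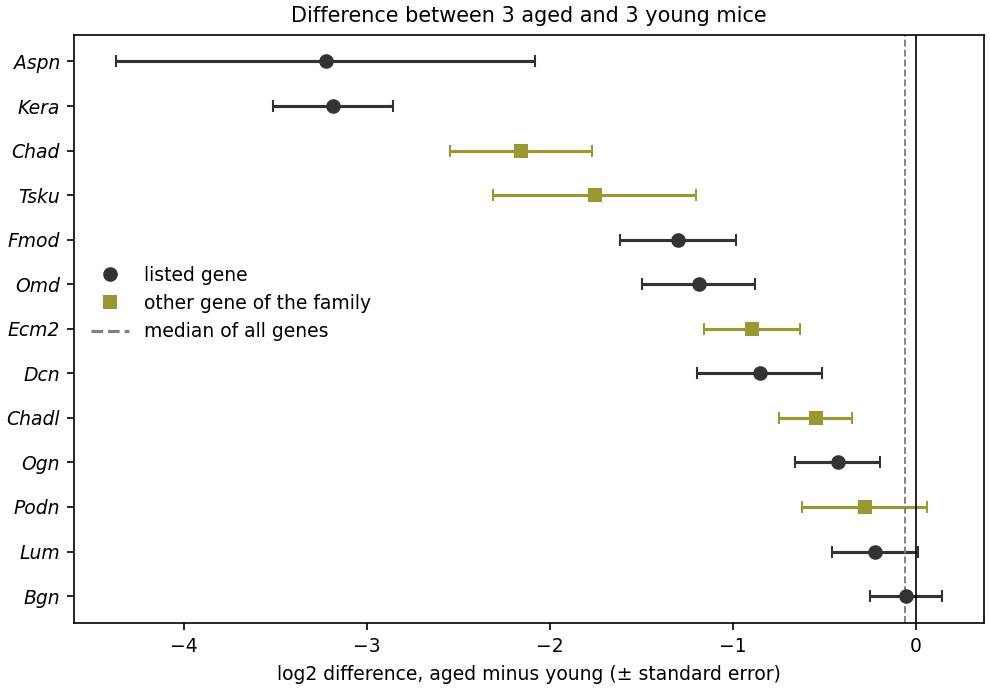
The log2 difference between 3 aged and 3 young mice (horizontal axis, ± SE) for the 8 listed genes (circles) and the 5 other genes of the family (squares), in order of size. The points lie below 0, from −3.22 for Aspn to −0.053 for Bgn, although Bgn and Podn changed sign when single mice were left out, and the dashed line is the median of all genes at −0.062.

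Genes with the profile most like Kera over the 6 mice were found by the root mean square difference between log2 signals centred on their mean, over 13840 named genes. As they were chosen for this likeness, they are not tested. The nearest were Grp, the gene of gastrin-releasing peptide, at 0.49, Asb17, of the ankyrin repeat and SOCS box family, at 0.53, and Col11a1, a chain of a cartilage fibril collagen, at 0.59. The non-coding E330011O21Rik followed at 0.65 and Ptx4, a pentraxin, at 0.66. Ptx4 was well above background in all mice, with a log2 difference of −1.97 ± 0.26 (SE), and Asb17 in 1 aged mouse. The other 3 were not well above background in any aged mouse, and were at least 5.03-fold (Grp), 6.72-fold (E330011O21Rik) and 1.46-fold (Col11a1) higher in young mice. With normexp background correction the log2 differences were smaller, at −1.02 for Grp, −0.92 for Asb17, −0.46 for Col11a1 and −1.23 for E330011O21Rik. Each bound sets the mean of the young mice against the lowest signal that was well above background, averaged over the aged arrays. Where the probe's own signal was higher than that, as for Grp in aged mouse 1, its own signal was used. The bound holds for the processed signals only. As the offset of normexp draws the differences of dim probes towards 0, its smaller differences do not test the bounds. Of the listed genes, Omd (rank 165) and Fmod (rank 190) were most like Kera. Aspn was at rank 8921, a place that rests in part on its 2 bounds.

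The enzymes that build the sugar chains were examined next. Of 22 genes of chondroitin and dermatan sulfate synthesis, 19 were tested, with 6 higher and 13 lower by the mean and a median log2 difference of −0.17. None passed the threshold in limma, and at an unadjusted p under 0.05 there were 2 higher and 4 lower, a level reached by 6.07% of all genes in the higher and 8.38% in the lower direction. The sulfotransferase genes Chst11 and Chst7, at 1.64 (adjusted p = 0.140) and −0.84 (adjusted p = 0.182), lay on opposite sides, and the epimerase-like Dsel was at −0.64 (adjusted p = 0.202). Of 8 genes of keratan sulfate synthesis, which keratocan, lumican and fibromodulin depend on for their chains, 4 were bright enough, with 1 higher and 3 lower by the mean and a median of −0.42. None passed the threshold, and 1 of them, the chain-extending B3gnt2, was higher at an unadjusted p under 0.05 (0.77, adjusted p = 0.288). The galactosyltransferase B4galt4 was at −0.49 (adjusted p = 0.424) and the sulfotransferase Chst1 at −0.50 (adjusted p = 0.455).

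The collagens to which the proteoglycans bind were all measurable, 11 of 11, and 2 had a higher and 9 a lower mean, with a median of −0.32. None passed the threshold, and 3 were lower at an unadjusted p under 0.05, against 8.38% of all genes. Col1a1 and Col1a2, the chains of the main fibril collagen, were at −1.56 (adjusted p = 0.291) and −1.54 (adjusted p = 0.162). Aged mouse 1 was the lowest in both, at 1.31 and 3.97, which is the reverse of Dcn, where aged mouse 1 was nearest to the young mice. Without aged mouse 1 the difference of Col1a1 was −0.90 and that of Col1a2 −1.14, and with the row as a block they were −2.89 and −2.34. Col12a1, a collagen of the fibril surface, was at −1.26 (adjusted p = 0.064), and at −0.73 with normexp.

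Of 12 growth factors and receptors that the core proteins bind, 11 were tested, and of 8 proteases that cleave them, 6. The median was 0.16 for the former, with 6 higher and 5 lower, and 0.070 for the latter, with 4 higher and 2 lower. None passed the threshold in limma, with 2 higher and 2 lower in the former and 1 higher and 1 lower in the latter at an unadjusted p under 0.05. Over all genes, 6.07% were higher and 8.38% lower at this level. Mstn, the gene of myostatin that decorin can bind, was at −1.20 (adjusted p = 0.138), and the receptor genes Tlr4 and Tlr2, which sense soluble biglycan, were at 1.43 (adjusted p = 0.152) and 0.72 (adjusted p = 0.175). Mmp3, the stromelysin gene, was at 3.93 (adjusted p = 0.152), but 1 of the 3 young arrays was not well above background, and with normexp the difference was 1.69. Mmp3, counted among the proteases, thus met the filter only with the aged mice, where it was higher. Bmp1 and Tll1, whose products trim the propeptides of some of these proteoglycans, were at −0.64 (adjusted p = 0.259) and −0.37 (adjusted p = 0.368). Over these lists and the other family genes, 56 of 69 genes were tested and 0 passed the threshold.

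**Figure D4:**
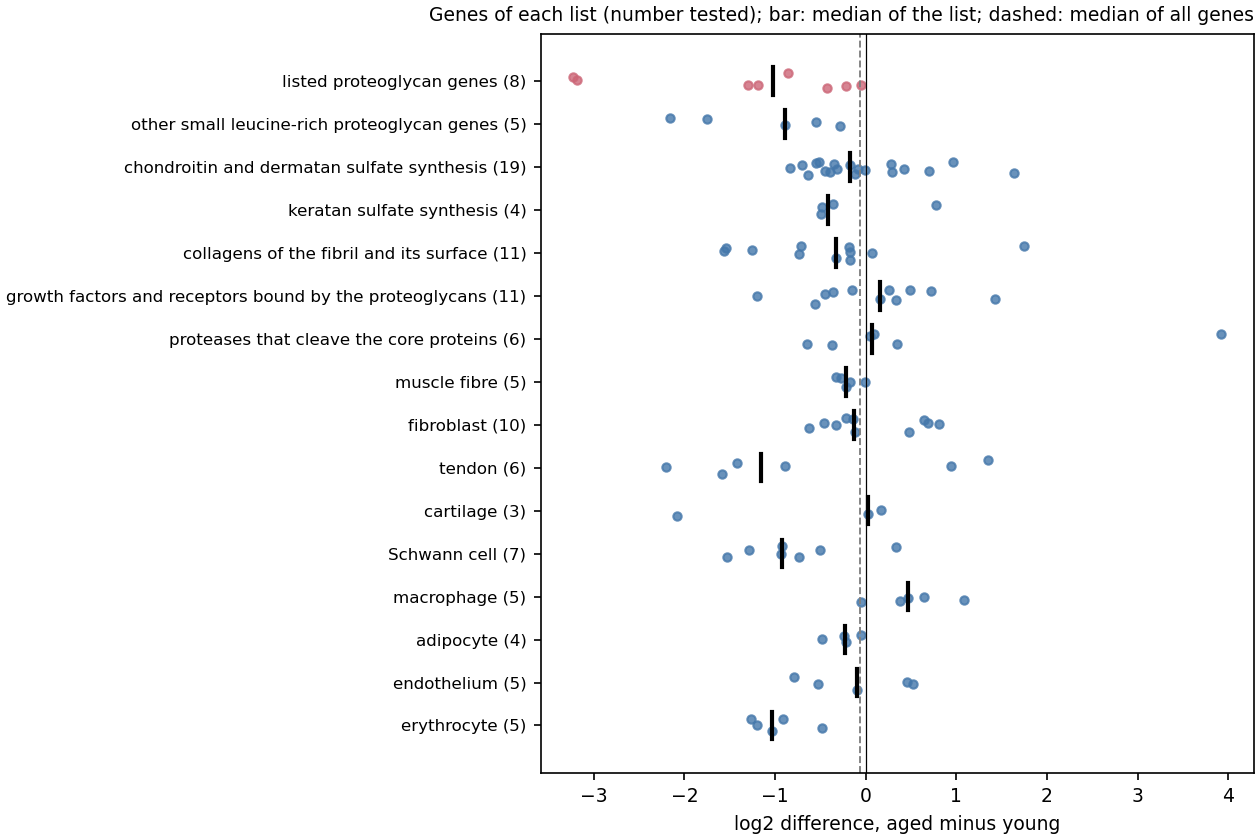
The log2 difference, aged minus young (horizontal axis), of each tested gene of the proteoglycan list, its pathway and partner lists and the marker lists, with the number tested in parentheses. The bar is the median of a list and the dashed line the median of all genes; the proteoglycan genes lie between −3.22 and −0.053, and the single-gene list of Col22a1 is not drawn.

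The markers of the cell types in whole muscle are given beside these values, and their part in the result was not tested. Genes of muscle fibres were bright in all mice, with a summed signal of 3494 to 4250 times the 75th percentile in young and 2775 to 3821 in aged mice, and 0 of 5 had an unadjusted p under 0.05. Of 10 fibroblast genes, 4 had a higher and 6 a lower mean, with a median of −0.13 and a summed signal of 159 to 182 in young and 119 to 179 in aged mice. Gsn alone had an unadjusted p under 0.05, at −0.63 (adjusted p = 0.299). Tendon markers lay on both sides of 0, and all 6 had an unadjusted p under 0.05, as did 14.4% of all genes, with none past the threshold. Lower were Mkx at −2.21 (adjusted p = 0.190, with 1 aged mouse above background), Tnmd at −1.58 (adjusted p = 0.183, with 2 aged mice above background), Comp at −1.42 (adjusted p = 0.227) and Thbs4 at −0.89 (adjusted p = 0.205), while Scx at 1.35 (adjusted p = 0.229) and Cilp at 0.94 (adjusted p = 0.125) were higher. Mkx, counted among the 6, met the filter through the young mice, where it was higher. With normexp, Mkx was at −0.78 and Tnmd at −0.76. The summed signal of the 6 was 65.6 to 71.3 in young and 49.5 to 88.1 in aged mice, so the groups overlapped. Col22a1, the collagen of the myotendinous junction, fell by 1.44 (adjusted p = 0.026 in limma) and Prx, of myelinating Schwann cells, fell by 1.29 (adjusted p = 0.043), where 0.0574% of all genes were past the threshold and lower. Both calls were lost when any mouse but aged mouse 1 was left out, and with median scaling (adjusted p = 0.060 and 0.050).

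The cartilage genes Col2a1, Matn3 and Hapln1 were too dim. Col9a1 was not well above background in any aged mouse and met the filter through the young mice, where it was higher. Its fitted log2 difference was −2.09 (adjusted p = 0.067 in limma), and −0.81 with normexp. By the bound on the processed signals it was at least 3.43-fold higher in young mice. The differences of Acan (0.17) and Sox9 (0.021) changed sign among the alternatives. The summed signal of the 3 tested was 0.594 to 0.809 in young and 0.357 to 0.710 in aged mice. Of 7 Schwann cell genes, 6 had a lower mean, with a median of −0.92, and 5 an unadjusted p under 0.05 (14.4% of all genes in either direction), while their sums of 22.8 to 42.5 in young and 20.4 to 38.4 in aged mice overlapped. The summed signal of 5 erythrocyte genes was 634 to 921 in young and 289 to 459 in aged mice, without overlap, and that of 5 macrophage genes was 18.8 to 20.9 and 20.8 to 26.2. The median was −0.23 over 4 adipocyte genes, with sums of 94.6 to 106 in young and 75.8 to 96.2 in aged mice, and −0.094 over 5 endothelial genes, with sums of 12.3 to 16.9 and 8.34 to 13.9. None of the erythrocyte, macrophage, adipocyte and endothelial genes passed the threshold. At an unadjusted p under 0.05, 4 of 5 erythrocyte genes and 1 of 5 endothelial genes were lower. At the same level 2 of 5 macrophage genes were higher, and 0 of 4 adipocyte genes reached it. Over all genes, 8.38% were lower and 6.07% higher at this level.

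Over all 20900 genes, 53 passed an adjusted p of 0.05 in limma, 41 of them with a higher and 12 with a lower signal in aged muscle, and 3020 had an unadjusted p under 0.05. Leaving out aged mouse 1 gave 199 such genes, leaving out aged mouse 3 gave 1, and leaving out any of the remaining mice gave 8 or 9. An array had 48.7% to 53.8% of its probes well above background, with the highest share and the highest mean signal of negative controls (61.3, against 51.9 to 55.1) in aged mouse 1. With so few arrays the precision is limited, and 0.10 is the smallest two-sided p that an exact permutation of 3 against 3 allows.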

How the data were processed

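Gastrocnemius RNA of 3 young and 3 aged mice was measured with 1 single-colour Agilent array per mouse (1 slide, 1 scan). The authors deposited intensity values from Feature Extraction (version 11.0.1.1 per the file headers, 9.5 per the submitters' processing notes), background-subtracted and detrended within an array but not scaled between arrays. The series matrix, as deposited, gave identical intensities, and the methods name no normalization or test for the arrays.

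The 10 genes and the other lists were chosen with earlier results of these data known. Control spots and 161 to 212 outlier spots per array were left out, the log2 signal was averaged per probe, and each array was scaled to its own 75th percentile. Probes were named by matching accessions to RefSeq transcripts of GRCm38.p6 (28335 of 55681 probes); the array was designed on mm9, so its own coordinates are not given, nor the exon a probe binds. A probe was kept if well above background on at least 3 of 6 arrays regardless of group, and the brightest kept probe stood for a gene (20900 genes, 13841 with a symbol). No probe was saturated.

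Differences, aged minus young, were fitted in R 4.3.3 using the limma package, version 3.58.1 (lmFit, then eBayes), with Benjamini-Hochberg adjustment over all genes and a threshold of 0.05. SE is that of the fit. Tested on simulated data of the same 20900 genes with 200 changed, the fit recovered 0%, 63.5% and 87.5% of log2 changes of 1, 2 and 3, with 0, 8 and 14 unchanged genes called. The genes followed through the alternatives are the listed genes, the other family genes, the 5 genes most like Kera and the neighbours of each chromosomal run. On every other list they are the genes past the threshold and otherwise up to 3 with the smallest unadjusted p. Some of them, among them those of muscle fibres, macrophages and erythrocytes, are given above only within their lists. Comp, Thbs4 and Scx were named to complete the tendon list and were not followed. Mice were taken as replicates as labelled. The alternatives were 17 in number (other background correction, scalings, filters, probe rule, variance model, series matrix values, row and replicate blocks, and leaving out each mouse). The metabolite and RT-PCR data of the study were not analysed here, nor were protein sequences of the genes.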

Additional observations from a re-analysis of the deposited data

How the results depend on the processing

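Under the 17 alternatives Kera stayed lower in aged mice in all 17, between −3.49 (row on the slide as a block) and −2.45 (normexp background correction), and between −3.46 and −2.85 when a mouse was left out. The median over the listed genes was −0.52 with the row as a block, where aged mouse 1 alone is compared with the young mice, and −1.33 to −0.69 when a mouse was left out. Of the 8 genes, 7 or 8 were lower in each alternative, and 7 where Aspn gave no value. Bgn reversed with the row as a block (0.019), without young mouse 2 (0.056) and without aged mouse 2 (0.063), and ranged from −0.18 to 0.063 when a mouse was left out. Aspn could not be included with only probes well above background on all 6 arrays.

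Past the threshold were 53 genes, but 8 with no filter on dim probes, 35 when every array had to be well above background, 5 with the replicate block, and 1 to 199 when a mouse was left out. Same-numbered mice did not deviate together (correlations of −0.062, −0.27 and 0.028), and for differently numbered mice the correlations ran from −0.21 to 0.35. With 3 mice per group this cannot exclude a pairing, and none was assumed. Of listed family, partner, pathway and marker genes, 2 were past it (Col22a1 and Prx), but 1 with median scaling (Chad, with both others lost), 1 with the percentile over detected probes (Col22a1), 0 with no filter, with the row as a block and with the replicate block, and 0 to 2 when a mouse was left out. Median scaling moved the median of all genes from −0.062 to −0.21.

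Among the other genes named, Acan reversed with normexp (−0.0051), without young mouse 1 (−0.000114) and without aged mouse 1 (−0.067), and Sox9 with normexp (−0.000778), with median scaling (−0.13) and without young mouse 3 (−0.14), aged mouse 1 (−0.23) or aged mouse 3 (−0.11). Adipoq reversed with the row as a block (0.20), Pecam1 without young mouse 3 (−0.13) and Podn without aged mouse 1 (0.051). When a mouse was left out, Acan ranged from −0.067 to 0.35, Sox9 from −0.23 to 0.40, Pecam1 from −0.13 to 0.87 and Podn from −0.64 to 0.051. The cause was not tested. Of 1010 values of 60 genes followed through the alternatives, Kera not among them, 945 were counted as unchanged. For the listed genes this meant the same direction and a shift smaller than the pooled SD of the gene. For the others it meant the same direction and the same side of the threshold. Signals near background limit the dim genes: normexp moved, among others, Col11a1, Grp, Asb17, E330011O21Rik, Col9a1, Mkx, Tnmd, Mmp3, Tsku and Aspn by over 1.5 times towards 0. The offset of 50 that normexp added draws the differences of dim probes towards 0 by itself, so nothing about these genes is read from the shift.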
